A study of Mus musculus with 3 samples.

Results

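The cells described here are the CD4+ T cells of cluster C2, called precursor-like by the authors, with *Tcf7* and *Tigit* as the markers used here. They were taken as all cells with cluster number 2 in the deposited table of CD4+ cells that did not carry the mark of a TEa cell. This gave 1365 cells of 10091 CD4+ cells without the TEa mark, in a series of 21204 CD4+ and CD8+ T cells. A further 40 cells of C2 carried the TEa mark and were left out.

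Recipients were lethally irradiated B6D2F1 mice (H-2b/d) that received C57BL/6 (B6, H-2b) bone marrow and B6 T cells with a small number of TEa TCR transgenic T cells, which recognise a recipient alloantigen. They were injected daily from day 0 to day 6 with saline or with cyclosporin (CSA), a calcineurin inhibitor, at 5 mg/kg (lower dose) or 50 mg/kg (higher dose), and spleens were taken on day 7. In each of the 3 groups the spleens of 6 mice were combined by 2 into 3 pools marked with hashtag antibodies, so the unit of replication was a pool of 2 mice. CD4+ and CD8+ T cells were sorted as donor cells from stained spleen cells, mixed in equal parts and captured for 5' RNA and T cell receptor (TCR) sequencing. All mice had undergone the same allogeneic transplantation, the B6 donor T cells and the B6D2F1 recipients both carry CD45.2 and CD90.2, and the age of the mice is not given in the sources used here. Each group was 1 capture, so that dose and capture cannot be told apart in any comparison below.

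T cell factor 1, the product of *Tcf7*, is a transcription factor of naive, memory and follicular helper T cells and of the precursors that feed the pool of exhausted T cells during chronic stimulation. Precursors of this kind divide slowly, keep homing and survival genes, and give rise to effector progeny, and they carry inhibitory receptors such as TIGIT and PD-1 that are themselves induced by TCR signals. Calcineurin carries the TCR signal to the NFAT transcription factors, and CSA blocks it when bound to cyclophilin.

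Each T cell clone is marked by its TCR, which the clustering on RNA did not use. The following clones are shown because each had a member in C2 and members in other CD4+ clusters of the same pool. Lines give the CDR3, the receptor loop that contacts peptide, from its first codon to its last, 5′ to 3′, as deposited, and capitals mark bases that matched neither the V nor the J germline segment named beside them.
Saline pool 2, alpha chain, Trav3d-3 and Traj31: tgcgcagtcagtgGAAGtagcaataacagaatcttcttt
Saline pool 2, beta chain, Trbv5 and Trbj1-1: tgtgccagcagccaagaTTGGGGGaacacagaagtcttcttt
CSA 5 mg/kg pool 3, alpha chain, Trav21-dv12 and Traj58: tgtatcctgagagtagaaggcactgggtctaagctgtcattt
CSA 5 mg/kg pool 3, beta chain, Trbv1 and Trbj1-4: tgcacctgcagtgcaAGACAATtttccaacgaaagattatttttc
CSA 50 mg/kg pool 1, alpha chain, Trav9-4 and Traj27: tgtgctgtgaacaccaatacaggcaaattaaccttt
CSA 50 mg/kg pool 1, beta chain, Trbv5 and Trbj2-1: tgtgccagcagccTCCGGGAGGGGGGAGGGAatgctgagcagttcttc

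The saline clone had 13 cells, of which 1 was in C2 and the others in C0, C3, C5, C6 and C8. The clone of the CSA 5 mg/kg group had 6 cells, 1 of them in C2, and that of the CSA 50 mg/kg group had 8 cells, also with 1 in C2. The alpha segments lie on the forward strand of chromosome 14 in mm10 (GENCODE M21), with Trav3d-3 at chr14:52972448-52973038, Trav21-dv12 at chr14:53875984-53876752 and Trav9-4 at chr14:53676141-53676630, and the beta segments Trbv5 and Trbv1 lie at chr6:41062332-41062803 and chr6:40891229-40891885. The capitals lie at the junctions, where bases are added or removed at recombination, and in the beta chains include the D segment.

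Over the 1167 C2 cells with a clonotype, a mean of 10.5% ± 2.59 (SD, n = 9 pools) belonged to an expanded clonotype, which was one carried by at least 2 CD4+ cells of the same pool in any cluster, against 23.1% ± 4.10 of the other CD4+ cells. The share in C2 was lower by 12.6 points ± 3.43, in 9 of 9 pools (exact two-sided sign-flip test, p = 0.00391, the smallest p that 9 pools allow). Against the other cells outside the cycling clusters the difference was −8.05 points. In the naive-like cluster C9 the count was 0 of 202 cells. Among the larger clusters the share was 23.4% in C0, 20.4% in C1, 34.1% in C3 and 13.6% in C4.

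**Figure D1:**
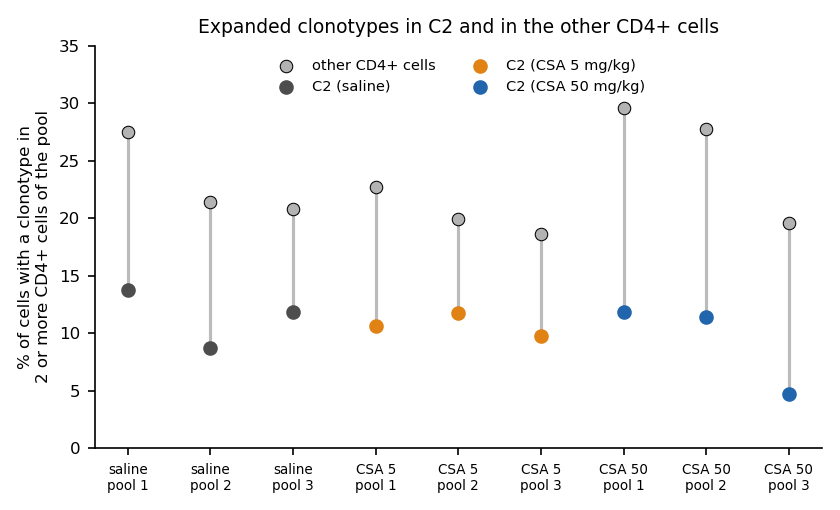
Percent of cells with an expanded clonotype (vertical axis) in C2 and in the other CD4+ cells, with 1 line for each of the 9 pools and colours for the groups. The C2 value lay below that of the other cells in 9 of 9 pools.

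The 120 expanded C2 cells fell into 102 clonotypes, of which 91 also had cells in another CD4+ cluster and 11 were found in C2 alone. An expanded clonotype with 1 cell in C2 had to reach another cluster, since it held at least 2 cells of the pool. Only 17 of the 102 had 2 or more C2 cells, and the 11 found in C2 alone were among these. The count of 91 was thus largely set by the definition. The 102 clonotypes held 182 cells outside C2, with 34 in C0, 31 in C3, 28 in C5, 26 each in C1 and C6, 15 in C4 and 0 in C9. As shares of these cells, C0 held 18.7%, C1 14.3%, C3 17.0%, C5 15.4% and C6 14.3%, while of all CD4+ cells outside C2 they held 19.7%, 19.0%, 13.97%, 11.4% and 7.54%, and C9 held 2.96%. By group, 34 of 36 such clonotypes reached another cluster in saline, 35 of 43 at the lower dose and 22 of 23 at the higher dose. The same limit of the definition holds for these counts. The largest had 26 cells, of which 2 were in C2, and was from saline pool 1. By dose, the expanded share of C2 was 11.4% ± 2.54, 10.7% ± 1.01 and 9.32% ± 3.99 in saline, CSA 5 mg/kg and CSA 50 mg/kg (SD, n = 3 pools each), and a trend was not detected (two-sided exact Jonckheere-Terpstra permutation test, p = 0.668).

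C2 had 450 cells in saline, 607 at the lower dose and 308 at the higher dose, with 83 to 237 cells and 419969 to 1168585 UMIs (unique molecular identifiers, counted molecules) per pool. Median UMIs per C2 cell were 3325, 4602 and 5066 in the order of dose, and 3063, 4308.5 and 6147.5 in the other CD4+ cells, so that depth moved with dose in both. All tests of expression used sums over the cells of a pool, never cells as replicates. Between captures 48 cell barcodes were shared. In 30 C2 cells at the lower dose the strongest hashtag was that of another pool, against 2 in saline and 9 at the higher dose.

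The T cell genes *Cd3e* (1132, 1234 and 1257 counts per 1000000 UMIs, CPM, in the order of dose) and *Cd3d* were high in each group, while *Cd8a* and *Ncr1* of NK cells had 0 UMIs in C2. *Foxp3* of regulatory T cells had 3, 10 and 0 UMIs, and *Il17a* had 0. *Cd8b1* was present at 146, 89.1 and 28.6 CPM although *Cd8a* was not, and the same order was seen in the naive-like cluster C9 (253, 140 and 27.4 CPM). Free RNA of the CD8+ T cells in the same capture was not tested as its source. C9 is given below beside activation and effector genes, since naive cells should lack them. Summed marker lists moved with dose: B cell genes ranged from 266 to 353 CPM over the saline pools and from 495 to 559 CPM at the higher dose, with *Cd74* at 46.2, 45.0 and 185 CPM, and myeloid genes from 279 to 300 and from 207 to 216 CPM. Their part in the results was not tested.

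The label held for *Tcf7* in every group, and for *Tigit* it did not hold at the higher dose. Among the 13 CD4+ clusters C2 had rank 2, 2 and 1 for *Tcf7* by dose (466, 440 and 258 CPM without scaling between pools). The follicular helper-like cluster C4 was above it in saline at 781 CPM, and the effector cluster C0 was at 117, 73.1 and 36.1 CPM. For *Tigit*, C2 had rank 3, 2 and 11, with 352, 453 and 25.8 CPM against 88.4, 61.0 and 0 CPM in C9. *Tcf7* lies at chr11:52252371-52283014 and *Tigit* at chr16:43648867-43664146, both on the reverse strand of mm10.

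The genes that stood highest in C2 against the other CD4+ cells are given as a description with no test, since the clusters were made from these counts. *Id3*, an inhibitor of E proteins that marks precursor and memory T cells, was at 371 CPM ± 84.8 in C2 and 64.9 CPM ± 13.0 in the other cells (SD, n = 9 pools), a log2 ratio of 2.49, and C2 ranked first for it in each group. The next were *Dapl1* (2.23), *Izumo1r*, which encodes the folate receptor 4 of follicular and regulatory T cells (2.23), the B cell follicle homing receptor *Cxcr5* (2.11), *Matk* (2.11), *Rgs10* (2.09), *Nsg2* (2.03), the lymph node homing receptor *Ccr7* (2.02) and *Tcf7* itself (2.02), then *Ephx1* (1.96), *Rflnb* (1.93) and the TCR-induced *Egr1* (1.70). The lowest were *Adam8* (−3.74), *Ifitm1* (−3.63), the mitotic gene *Aspm* (−3.53), *Ifitm2* (−3.45) and the chemokines *Ccl3* (−3.45) and *Ccl1* (−3.39). The ratio for *Tcf7* was 1.04 in saline, 2.18 at the lower dose and 2.84 at the higher dose on the log2 scale. *Cxcr5* was not particular to C2. Without scaling, C4 had 217 CPM in saline and 142 CPM at the lower dose, against 104 and 97.8 CPM in C2. At the higher dose C4 had 12.8 CPM, from 1 UMI, and C2 12.6 CPM.

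The share of C2 among CD4+ cells was 11.2%, 12.5% and 9.56% in the saline pools, 22.4%, 18.6% and 20.4% at the lower dose and 8.40%, 8.42% and 13.1% at the higher dose. All pools at the lower dose lay above all others, although 3 pools against 3 cannot give an exact p below 0.1. By edgeR on the numbers of cells per cluster, C2 was higher at the lower dose than in saline (log2 0.88 ± 0.19, adjusted p = 0.000685) and lower at the higher than at the lower dose (−1.03 ± 0.20, adjusted p = 0.000228). A trend over the 3 groups was not detected (exact Jonckheere-Terpstra permutation test, p = 0.831). At a coarser resolution of the authors' clustering, 97.4% of C2 and 99.4% of C4 cells fell into a single cluster. C4 held 18.1%, 6.42% and 1.47% of CD4+ cells in the order of dose. C2 and C4 together, a sum chosen after seeing the data, made up 29.1% ± 2.18, 26.9% ± 2.94 and 11.5% ± 2.78 (SD, n = 3 pools each), lower by 17.7 points at the higher dose than in saline (exact Jonckheere-Terpstra permutation test, p = 0.0095). *Tcf7* and *Tigit*, the markers used for C2, changed with dose themselves, so these shares are a description of the authors' clusters and not a count of 1 cell type.

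**Figure D2:**
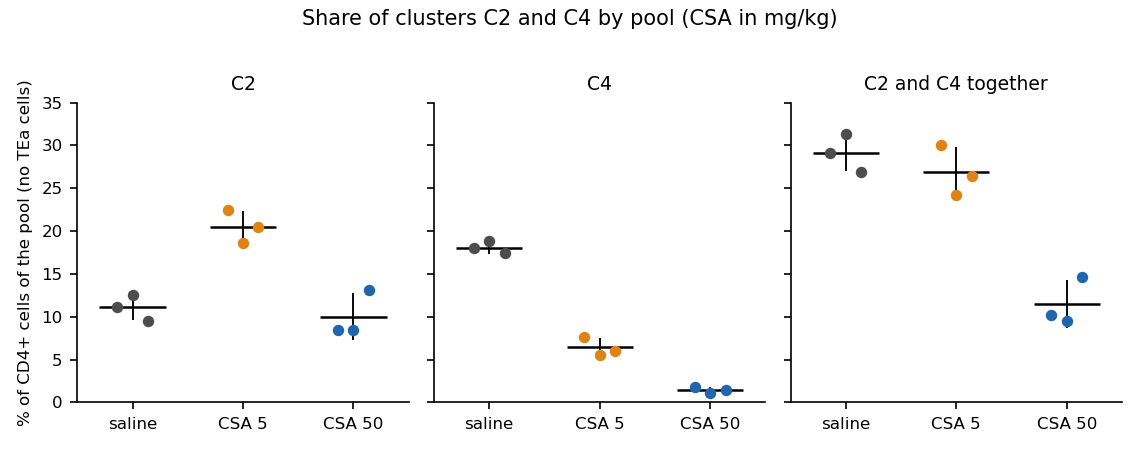
Percent of CD4+ cells without the TEa mark (vertical axis) that were in C2, in C4 and in both together, by group, with 1 point per pool and a line at the mean. C2 was highest at 5 mg/kg, C4 fell with dose, and the sum lay between 9.51% and 14.6% in the pools at 50 mg/kg.

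Within C2, 6848 genes were tested with the quasi-likelihood test of edgeR, adjusted by Benjamini-Hochberg, and a gene is said to have risen or fallen when its adjusted p was under 0.05. At 5 mg/kg against saline 208 genes rose (3.04%) and 156 fell (2.28%), so that 5.32% of those tested were called. At the higher dose 791 rose (11.6%) and 753 fell (11%), with 22.5% called. Counts of list members below stand beside these shares of all genes. Between the doses 556 were higher (8.12%) and 561 lower (8.19%) at the higher dose. Of all tested genes, 35.6% had pools at the higher dose that did not overlap the saline pools. Values per pool below are CPM scaled by TMM, given for pools 1, 2 and 3 of each group, and changes are log2 fold changes with their standard error (SE). Scaling by library size in place of TMM moved the median log2 change over all genes to −0.13 at the lower dose and −0.18 at the higher, and gave 113 rises and 385 falls at the lower dose and 424 and 1233 at the higher dose.

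*Tcf7*, the first marker, was held at the lower dose and lower at the higher dose. It was at 470, 482 and 387 CPM in saline, 490, 452 and 431 CPM at the lower dose, and 298, 228 and 305 CPM at the higher dose, so that the pools at the higher dose lay below all others. The change at the higher dose was −0.67 ± 0.10 (SE; edgeR, adjusted p = 2.28e-06), but −0.36 and no longer past the threshold among cells of 4000 to 8000 UMIs. In the other CD4+ cells it went further down, from 177 to 37.3 CPM (a log2 change of −2.23). The change in C2 was thus the higher by 1.56 ± 0.12 (the same edgeR test of the interaction term, adjusted p = 3.02e-17), and at the lower dose by 0.92. Both differences lost the threshold against the effector clusters C0 and C1 alone, where they were 0.30 and 0.26. The other cells as a whole include C4, the cluster with the highest *Tcf7* in saline, whose share fell with dose.

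With every cell thinned to 2000 UMIs, *Tcf7* was found in 57.8%, 53.4% and 36.8% of C2 cells by dose and in 35.3%, 31.4% and 28.7% of C9 cells. Without thinning the C2 values were 74.6%, 78.2% and 66.0%. Thinning left out 29, 11 and 2 C2 cells that were below that depth. *Tigit* was found in 43.3%, 47.9% and 4.96% of thinned C2 cells (57.7%, 68.8% and 9.15% without thinning) and in 8.74%, 4.15% and 0% of C9 cells. In C0 the *Tigit* values were 42.7%, 50.3% and 19.7%, and in C4 52.8% in saline, so detection of *Tigit* was not particular to C2. *Tcf7* was found in 76.1% of C4 cells and 19.0% of C0 cells in saline.

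**Figure D3:**
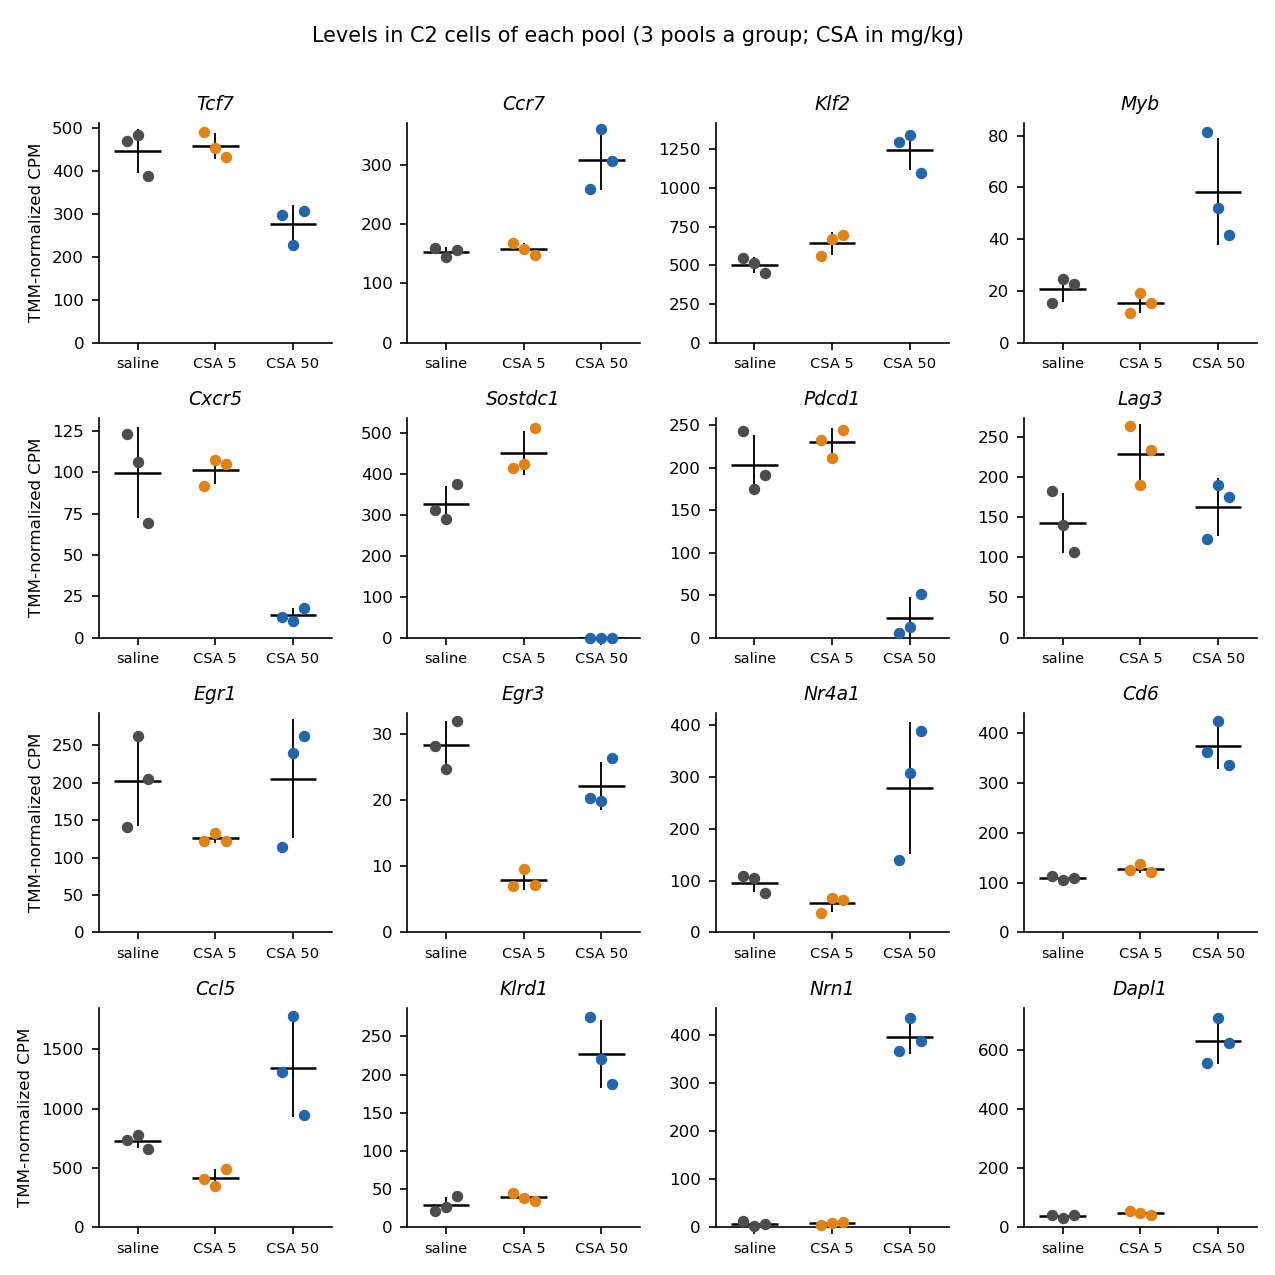
TMM-scaled CPM in C2 (vertical axes, each with its own scale) of 16 genes in saline, CSA 5 mg/kg and CSA 50 mg/kg, with 1 point per pool, a line at the mean and a bar of 1 SD (n = 3), cut at 0. *Ccr7*, *Klf2*, *Myb*, *Cd6*, *Nrn1* and *Dapl1* stood highest at 50 mg/kg, *Cxcr5*, *Sostdc1* and *Pdcd1* lowest, and *Egr1* and *Egr3* were lowest at 5 mg/kg.

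Precursor and memory genes other than *Tcf7* mostly rose at the higher dose. Of 19 tested members of this list, 11 rose and 3 fell, with a median change of 0.56 against −0.01 over all genes (11.6% of all genes rose and 11% fell), and with library size scaling 8 rose and 4 fell. At 5 mg/kg 1 rose (*Klf2*) and 0 fell, where 3.04% of all genes rose. With C2 and C4 as 1 cluster, chosen after seeing the data, 2 of 20 rose and 6 fell at that dose (1410 and 1290 of 8160 genes in all). *Ccr7*, the receptor that brings naive and central memory T cells into lymph nodes, lies at chr11:99144196-99155077 on the reverse strand. It was at 160, 146 and 156 CPM in saline, 169, 159 and 148 CPM at the lower dose and 260, 361 and 306 CPM at the higher dose. All higher-dose pools lay above the other 6, and the change was 1.01 ± 0.12 (edgeR, adjusted p = 9.8e-09). C9 had 507, 357 and 687 CPM of *Ccr7* without scaling.

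The transcription factor *Klf2*, which drives genes of T cell trafficking, rose at both doses. It was at 550, 514 and 447 CPM in saline, 558, 672 and 696 CPM at the lower dose and 1296, 1343 and 1100 CPM at the higher dose, with changes of 0.36 (adjusted p = 0.0043) and 1.29 ± 0.08 by the edgeR test. The smaller change was not past the threshold with library size scaling (0.23) or without pool 3 of either group (0.29 in each case). *Myb*, a factor of long-lived precursor T cells, was at 15.2, 24.7 and 22.5 CPM in saline, 11.6, 19.1 and 15.2 CPM at the lower dose and 81.5, 51.9 and 41.6 CPM at the higher dose. Its change at the higher dose was 1.36 ± 0.29 (edgeR, adjusted p = 0.000383), and it was higher in C2 than in the other cells by 1.84 ± 0.31. *Lef1*, the partner of *Tcf7* (0.74 ± 0.11), and *Id3* (0.58 ± 0.12) also rose. *Slamf6*, a surface marker of precursors (−0.46), and *Il7r*, the receptor for the survival cytokine IL-7 (−0.57), fell with *Tcf7*, the latter not past the threshold among cells of 4000 to 8000 UMIs (−0.30) or without saline pool 2 (−0.48). *Bach2*, a repressor of effector genes, rose by 0.95, but this was not past the threshold in 7 of the alternatives, DESeq2 and library size scaling among them.

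Against the other CD4+ cells, 12 of 20 tested precursor and memory genes had the higher change in C2 at the higher dose and 0 the lower (17.9% of 9878 genes differed, 5.71% of them with the higher change in C2). The median difference was 0.62, against −0.03 over all genes. Against C0 and C1 alone, 7 had the higher and 3 the lower change. *Bcl2*, the survival factor, was among these, with −0.10 in C2, which did not pass the test, and −1.13 in the other cells.

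Follicular helper genes fell as a group at the higher dose. Of 21 tested members 18 fell and 0 rose, with a median of −2.17, where 11% of all genes fell and 11.6% rose. At the lower dose 2 rose (*Maf* and *Sostdc1*) and 0 fell. With C2 and C4 as 1 cluster, chosen after seeing the data, 6 of 22 rose and 8 fell at the lower dose (1410 and 1290 of 8160 genes in all). *Sostdc1*, a secreted BMP and WNT antagonist of follicular T cells at chr12:36314139-36318452, went from a rise to nothing. It was at 312, 288 and 376 CPM in saline, 414, 423 and 511 CPM at the lower dose, and 0 CPM in each pool at the higher dose. The rise at the lower dose was 0.48 ± 0.10 (edgeR, adjusted p = 0.000792), but 0.26 and not past the threshold among cells of 4000 to 8000 UMIs. At 50 mg/kg there were 0 UMIs against 542 in saline, a level at least 183-fold lower with a floor of 3 UMIs over the group. In C4 without scaling it was 496, 167 and 0 CPM, and in C9 7.12, 56.0 and 0 CPM.

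*Cxcr5*, at chr9:44511787-44561877 on the reverse strand, was at 123, 106 and 69.5 CPM in saline, 91.9, 108 and 105 CPM at the lower dose and 12.7, 9.89 and 18 CPM at the higher dose. It did not change at the lower dose beyond the spread between pools and fell at the higher dose (−2.76 ± 0.28, edgeR, adjusted p = 4.57e-11). *Tox2*, a factor of follicular helper cells, was at 97.5, 109 and 73.3 CPM in saline, 96.6, 99.2 and 120 CPM at the lower dose and 0, 2.47 and 8.32 CPM at the higher dose (−4.30 ± 0.37). The master regulator *Bcl6* (−2.20 ± 0.46), the cytokine *Il21* (−2.63), *Izumo1r* (−2.17) and *Angptl2* (−5.37) fell as well. *Icos*, the costimulatory receptor that follicular helper cells need, was lower but still present, at 591, 577 and 267 CPM (−1.13). *Maf* rose at the lower dose (0.51, adjusted p = 0.0106; not past the threshold without pool 3 of saline or of that dose, 0.45 in each case) and its change at the higher dose (0.14) did not pass the test.

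In the pool-blocked fit with the other CD4+ cells, 9 of 23 follicular helper genes had the higher change in C2 at the lower dose and 1 the lower, where 1.72% of all genes had the higher and 8.34% the lower change. *Sostdc1* changed in the other cells at the lower dose by −1.60 on the log2 scale, a difference of 2.14 ± 0.14. For *Cxcr5* the difference was 1.41. These other cells include C4, whose share was lower at this dose, and against C0 and C1 alone neither was past the threshold (0.91 and 0.82). The *Cxcr5* difference at the higher dose (2.56) was 0.48 in that comparison, also not past it.

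Inhibitory receptors split. Of 9 tested, 3 rose at the lower dose (*Tigit*, *Lag3* and *Cd5*) and 0 fell, while at the higher dose 2 rose (*Cd96* and *Cd5*) and 5 fell (*Pdcd1*, *Tigit*, *Cd160*, *Btla* and *Lilr4b*), with a median of −1.09. *Pdcd1*, which encodes PD-1, was at 243, 175 and 192 CPM in saline, 233, 212 and 245 CPM at the lower dose and 5.09, 12.4 and 51.3 CPM at the higher dose. *Tigit* was at 403, 312 and 299 CPM, 535, 449 and 427 CPM, and 30.6, 24.7 and 27.7 CPM in the same order. Its rise at the lower dose was 0.49 (edgeR, adjusted p = 0.000529) and 0.29 and not past the threshold among cells of 4000 to 8000 UMIs.

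*Lag3*, an MHC class II-binding inhibitory receptor, was held at the higher dose in C2. It was at 182, 140 and 107 CPM in saline, 263, 190 and 234 CPM at the lower dose and 122, 191 and 175 CPM at the higher dose. Its rise at the lower dose was 0.70 ± 0.14 (edgeR, adjusted p = 0.000557) and its change at the higher dose 0.22 (adjusted p = 0.365). In the other CD4+ cells it went from 99.2 to 23.0 CPM, a log2 change of −2.13, so that the change in C2 was the higher by 2.28 ± 0.18 (edgeR, adjusted p = 6.15e-17). C9 had 48.1, 46.6 and 0 CPM.

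*Cd5* and *Cd6*, related surface receptors that dampen TCR signals, rose together. *Cd5* was at 264, 268 and 291 CPM in saline, 285, 391 and 365 CPM at the lower dose and 733, 863 and 698 CPM at the higher dose. *Cd6* was at 113, 106 and 109 CPM, 124, 137 and 121 CPM, and 362, 425 and 336 CPM. At 50 mg/kg they changed by 1.47 ± 0.10 and 1.76 ± 0.13, each higher than in the other CD4+ cells, by 0.70 and 0.79. The rise of *Cd5* at the lower dose (0.34, edgeR adjusted p = 0.0408) was lost in 10 of the alternatives. Thinned to 2000 UMIs, 38.5%, 47.5% and 68.6% of C2 cells had a *Cd5* UMI (54.6%, 68.1% and 91.2% unthinned), against 25.9%, 29.8% and 24.4% in C9.

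Of 15 costimulatory receptors, 0 passed the test at the lower dose, and at the higher dose 2 rose, *Cd28* (0.46) and *Cd2* (0.34), and 9 fell, with a median of −0.61. Over all genes 11.6% rose and 11% fell at the higher dose. *Cd2* was 0.16 with library size scaling and *Cd28* was 0.05 with C2 and C4 as 1 cluster, neither past the threshold. Besides *Icos*, the receptors that fell were *Cd226* (lost in 12 of the alternatives), *Slamf1*, *Tnfsf8*, *Cd82* and members of the TNF receptor family. *Tnfrsf9*, encoding 4-1BB, was one of that family (−1.66).

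Of 23 tested early genes of TCR signalling, 0 rose and 4 fell at the lower dose (*Egr1*, *Egr3*, *Irf4* and *Myc*, of which the falls of *Irf4* and *Myc* were lost in 2 and 6 of the alternatives), with a median of −0.35, and at the higher dose 4 rose (*Nr4a1*, *Dusp2*, *Dusp5* and *Dusp6*) and 7 fell, with a median of −0.16. *Egr3*, an early growth response factor, was at 28.2, 24.7 and 31.9 CPM in saline, 6.98, 9.56 and 7.14 CPM at the lower dose and 20.4, 19.8 and 26.3 CPM at the higher dose. It fell at the lower dose (−1.82 ± 0.35, edgeR adjusted p = 0.000312), which its change in the other CD4+ cells did not match (a difference of −1.89, adjusted p = 0.00173, but −0.74 and not past the threshold against C0 and C1 alone), and at the higher dose it changed by −0.28 (adjusted p = 0.581). *Egr1* was at 141, 262 and 205 CPM, 122, 133 and 122 CPM, and 115, 240 and 262 CPM, with a change at the lower dose of −0.73 ± 0.17 (adjusted p = 0.00253) and −0.47, not past the threshold, without saline pool 2. C9 had 51.5, 44.6 and 20.7 CPM of *Egr1*. Among cells of 4000 to 8000 UMIs 0 of 21 tested genes of the list passed at the lower dose. DESeq2 also called 0, but gave an adjusted p for only 2600 of 6848 genes at that dose. *Egr3* had no adjusted p in either alternative, so these do not assess its fall. With C2 and C4 as 1 cluster, chosen after seeing the data, 7 of 27 genes of the list rose and 2 fell at the lower dose (1410 and 1290 of 8160 genes in all). In that setting the falls of *Egr1* (−0.25), *Egr3* (−0.54) and *Myc* (−0.40) were not past the threshold. Against the other CD4+ cells 12 of 30 had the lower change in C2 at the lower dose and 0 the higher, where 8.34% and 1.72% of all genes did.

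*Nr4a1*, the orphan nuclear receptor used as a reporter of TCR signals, was at 108, 105 and 75.1 CPM in saline, 37.2, 66.9 and 63.4 CPM at the lower dose and 140, 307 and 388 CPM at the higher dose. All pools at the lower dose lay below the saline pools (−0.77, edgeR adjusted p = 0.0582) and all at the higher dose above them (1.61 ± 0.20, adjusted p = 1.56e-08). *Dusp2* and *Dusp5*, phosphatases that are induced by ERK signals and shut them off, rose at the higher dose by 1.58 and 1.78, and *Dusp6* rose by 0.83, which was 0.52 and not past the threshold without pool 2 of that dose. The falls at the higher dose took in *Nrgn* (−2.59), the AP-1 factor *Batf* (−1.26), *Socs1* (−0.90) and the NFAT gene *Nfatc1* (−0.48), with *Nfkbia*, *Rel* and *Tnfrsf9*. Dissociation stress genes, which include early response genes, moved in the same direction as *Nr4a1*: 5 of 11 rose at the higher dose (*Jund*, *Hspa8*, *Dnaja1*, *Ier2* and *Zfp36*) and 0 fell, while with library size scaling 3 rose and 2 fell. Their summed level was 4102 to 4465 CPM in the saline pools and 4629 to 5101 CPM at the higher dose, and *Hspa1a* had 0 UMIs.

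Genes of the drug's own pathway were called in both directions at the higher dose. Of 15 tested genes of calcineurin, NFAT and the cyclophilins, 0 passed at the lower dose. At the higher dose 3 rose and 2 fell, where 11.6% of all genes rose and 11% fell. With library size scaling 1 rose and 6 fell, where 424 and 1233 of 6848 genes did. Whether the list differed from all genes was not tested. *Ppp3ca*, the catalytic subunit of calcineurin, was at 13.0, 18.9 and 28.2 CPM in saline, 24.4, 21.5 and 24.1 CPM at the lower dose and 56.0, 69.3 and 54.1 CPM at the higher dose. It rose at the higher dose by 1.53 ± 0.27 (edgeR, adjusted p = 2.25e-05). *Ppp3cc* (0.49) and the FK506-binding *Fkbp1a* (0.28) rose, though not past the threshold in 9 and 6 of the alternatives, and *Nfatc1* and *Nfatc2* (−0.82) fell, which was lost in 3 and 4. *Ppia*, the cyclophilin that binds CSA, changed by −0.12 in C2 (adjusted p = 0.0539) and by 0.92 in the other CD4+ cells, a difference of −1.04.

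**Figure D4:**
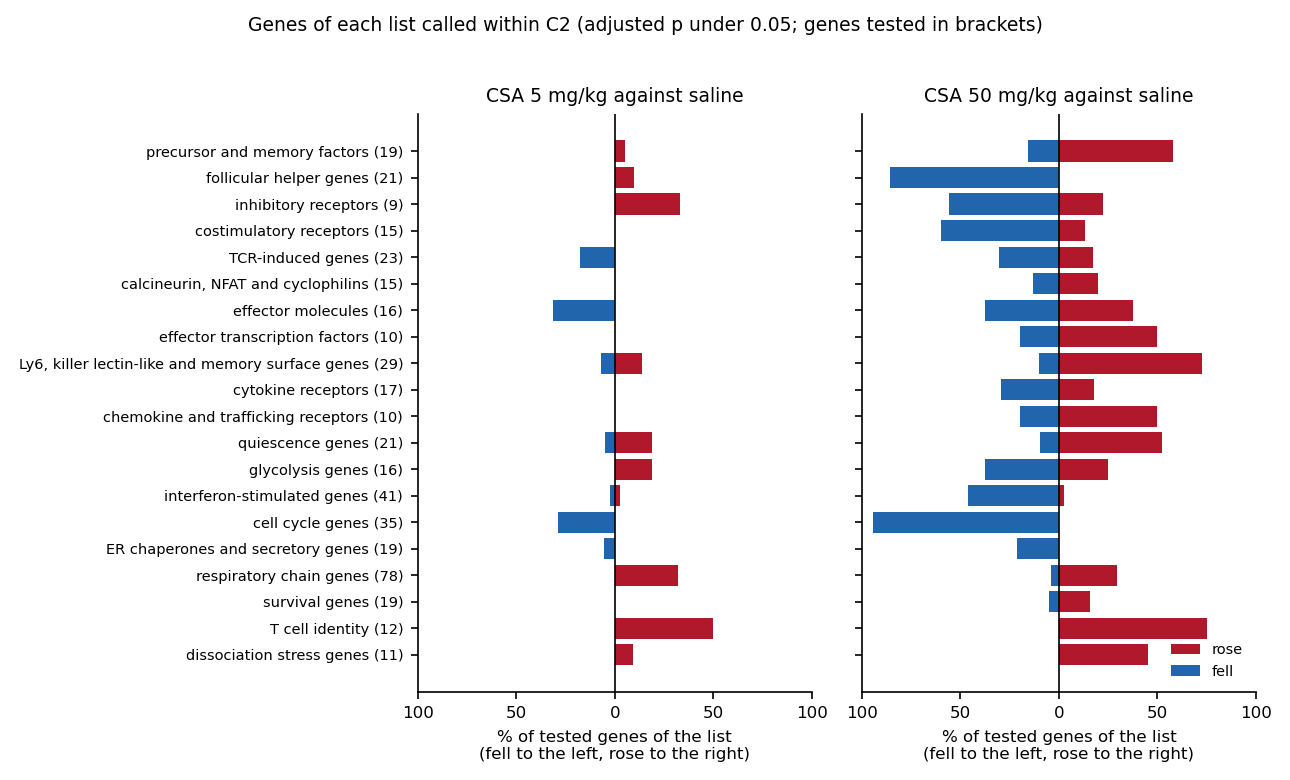
Percent of tested genes of each list that rose (right) or fell (left) in C2 at CSA 5 mg/kg and at CSA 50 mg/kg against saline, by edgeR's quasi-likelihood test, for lists with at least 9 tested genes. Follicular helper and cell cycle genes fell at 50 mg/kg, and the Ly6 and killer lectin-like group and precursor genes mostly rose; with library size scaling the rises of the T cell identity list at 5 mg/kg (6 of 12) became 0 rises and 1 fall.

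Effector molecules did not move as a group. Of 16 tested, 0 rose and 5 fell at the lower dose (*Tnf*, *Ccl3*, *Ccl4*, *Ccl5* and *Nkg7*), and at the higher dose 6 rose and 6 fell, with a median of −0.40. *Ccl5*, the chemokine RANTES, was at 736, 775 and 663 CPM in saline, 406, 348 and 492 CPM at the lower dose and 1311, 1778 and 946 CPM at the higher dose. It changed at the lower dose by −0.79 ± 0.12 and rose at the higher by 0.85 ± 0.12. C9, which should lack it, had 1100, 303 and 621 CPM, above the unscaled C2 level in saline (756 CPM) and below it at the lower (399 CPM) and the higher dose (1252 CPM). The part of free RNA in these changes was not tested. In the other CD4+ cells *Ccl5* rose more at the higher dose, by 1.94.

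*Nkg7*, a granule membrane protein, was at 595, 477 and 874 CPM (group means), with the fall at the lower dose lost in 3 of the alternatives, and C9 had 818, 343 and 117 CPM. *Fasl*, the death receptor ligand (1.61), and *Ctla2a*, a cathepsin inhibitor (3.73), rose at the higher dose. *Gzmk* (−1.99), *Ccl3* (−1.51) and *Tnf* (−0.81) fell, and the falls of *Ccl3* at the lower and higher dose were lost in 10 and 4 of the alternatives. Of 10 tested effector transcription factors, 0 passed at the lower dose, and at the higher dose *Eomes* (2.06), *Hopx* (1.44), *Gata3* (0.74), *Id2* (0.42) and *Runx3* rose and *Rora* (−1.57) and *Ikzf2* (−2.79) fell. *Tbx21*, the T-bet gene of type 1 effector cells, was at 0.32 and did not pass (edgeR, adjusted p = 0.286).

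Surface genes of the Ly6, killer lectin-like and memory group rose widely at the higher dose. Of 29 tested, 21 rose and 3 fell, with a median of 0.78, and at the lower dose 4 rose and 2 fell. Over all genes 11.6% rose and 11% fell at the higher dose, and 3.04% and 2.28% at the lower dose. *Klrd1*, which encodes CD94, was at 21.7, 26.2 and 41.3 CPM in saline, 45.4, 38.2 and 33.9 CPM at the lower dose and 275, 220 and 187 CPM at the higher dose. It rose by 2.88 ± 0.20, and by 0.88 in the other CD4+ cells, a difference of 2.00 ± 0.21. C9 had 55.2, 73.4 and 30.9 CPM, so the saline and lower-dose levels of C2 lay below it. Its partner *Klrc1*, encoding NKG2A (2.34), and *Klrk1*, encoding NKG2D (2.45), rose as well. *Lmna*, the nuclear lamin A gene, went from 1.83 to 115 CPM (5.88), and the annexin gene *Anxa1* by 2.24.

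*Ly6c2* differed from *Klrd1* in that its rise (3.52) was not told apart from that in the other CD4+ cells (3.63; a difference of −0.12, edgeR adjusted p = 0.571). In thinned C2 cells at the higher dose, a *Ly6c2* UMI was found in 61.1%, 56.5% and 43.6% of cells with a *Tcf7* UMI in pools 1, 2 and 3 and in 74.5%, 54.1% and 39.3% of those without. The shares in cells with and without a *Tcf7* UMI overlapped. At this dose *Tcf7* was found in 36.8% of thinned and 66.0% of unthinned C2 cells, so cells without a UMI can still hold *Tcf7* RNA. Whether *Ly6c2* differs between cells with and without *Tcf7* RNA therefore cannot be decided here.

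Several of the largest changes at the higher dose were genes outside these lists. *Nrn1*, neuritin, a surface-anchored protein described in anergic and regulatory CD4+ T cells and encoded at chr13:36725361-36735131 on the reverse strand, was at 13.0, 2.91 and 7.51 CPM in saline, 5.82, 8.37 and 11.6 CPM at the lower dose and 367, 435 and 387 CPM at the higher dose. Its change was 5.75 ± 0.22 (edgeR, adjusted p = 5.82e-25), and C2 was the highest of the 13 clusters at the higher dose, with C4 at 105 CPM and C9 at 3.35 CPM without scaling. *Dapl1* was at 41.2, 33.5 and 41.3 CPM, 57.0, 50.2 and 41.1 CPM, and 555, 710 and 625 CPM, a change of 4.04 ± 0.15. C9 also held *Dapl1*, at 130, 220 and 420 CPM.

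*Gucy1a1*, a subunit of the nitric oxide receptor, had 0 UMIs in saline, 4 at the lower dose and 133 at the higher dose, a level at least 43.8-fold higher than in saline with a floor of 3 UMIs over the group. Without scaling it was at 84.1 CPM in C2, 84.2 CPM in C7 and 64.9 CPM in C4 at the higher dose, from 0, 4.93 and 1.11 CPM in saline. *Ifitm1* had 175, 187 and 0 UMIs, at least 59.1-fold lower at the higher dose, but its saline level in C9 (194 CPM) was above that of C2 (107 CPM). The other largest falls were *Angptl2* and the histone genes *Hist1h2bb* (−5.26), *Hist1h2bj* (−4.84) and *Hist1h2ak* (−4.73).

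At the lower dose the largest rises were of small ribosomal protein and mitochondrial genes. *Rps28*, of the small ribosomal subunit, was at 1356, 1294 and 1403 CPM in saline, 2983, 2897 and 2941 CPM at the lower dose and 1731, 1801 and 1785 CPM at the higher dose, a change of 1.12 ± 0.05 at the lower dose and 0.39 at the higher. *Rpl38* (1.05), *Rps29* (1.03), *mt-Nd3* (1.01), *Pet100* (0.97) and *Hbp1*, a repressor of the cell cycle (0.96), followed. The other CD4+ cells gained more *Rps28*, by 1.83, and the pools of the lower dose shared a capture, which cannot be told apart from dose. The largest falls were *Hist1h2ak* (−1.48), *Hist1h1c* (−1.38), *Hist2h2bb* (−1.32), *Hist1h1a* (−1.23), *Ccl4* (−1.14) and *Hist1h3f* (−1.11).

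Cell cycle genes fell in C2, fewer of them at the lower dose. Of 35 tested, 0 rose and 10 fell at the lower dose and 0 rose and 33 fell at the higher dose, with a median of −1.62. *Mki67*, the proliferation marker Ki-67, fell (−1.58), and without scaling was at 73.4, 64.3 and 20.9 CPM in C2 and 83.2, 115 and 27.0 CPM in C9, with C2 at rank 12 of 13 clusters. The histone gene *Hist1h2ab* was at 334, 147 and 11.3 CPM in C2 and 534, 243 and 10.1 CPM in C9. The part of free RNA in this fall was not tested.

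Over all genes 11.6% rose and 11% fell at the higher dose. Quiescence genes rose at that dose, 11 of 21 with 2 falls and a median of 0.39 (8 and 2 with library size scaling). Besides *Klf2* they included *Tsc22d3* (1.16), *Txnip*, an inhibitor of glucose uptake (0.71), *Btg1* (0.53) and *Gimap4* (0.46), while the cell cycle inhibitor *Cdkn1b* fell at either dose (−0.59 and −0.52). Glycolysis genes were mixed, with 4 of 16 rising and 6 falling at the higher dose (1 and 8 with library size scaling), among them *Ldhb* (−3.43), *Hif1a*, the hypoxia factor (−1.17), and *Tpi1* (−1.04). Of 78 respiratory chain genes 25 rose and 0 fell at the lower dose and 23 rose and 3 fell at the higher dose, which became 16 and 0, and 10 and 7, with library size scaling. Every difference from the other CD4+ cells that passed at the higher dose, 68 of 78, was lower in C2, where 12.2% of all genes were. *Atp5e* was one of them, with 0.25 in C2 and 1.33 in the other cells.

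Of 41 interferon-stimulated genes, 1 rose and 1 fell at the lower dose, and at the higher dose 1 rose (*Ifi47*, 0.50) and 19 fell, with a median of −0.44. *Isg15*, a ubiquitin-like modifier, was at 164, 197 and 47.7 CPM by group (−1.68 ± 0.22), and *Irf7*, the factor that amplifies the response (−0.75), fell too, the latter not past the threshold in 3 of the alternatives (−0.45 without CSA 50 mg/kg pool 3). Among 17 cytokine receptors 3 rose and 5 fell at the higher dose (2 and 7 with library size scaling), where 11.6% of all genes rose and 11% fell. *Il2rb* (0.53) and *Il2rg* (0.51), the IL-2 and IL-15 receptor chains, were among the rises, and *Il18r1* (−1.82) and *Ifngr1* (−0.60) among the falls. Among cells of 4000 to 8000 UMIs *Il2rb* (0.25) and *Ifngr1* (−0.14) were not past the threshold, and *Ifngr1* lost it in 5 of the alternatives in all. Among 10 chemokine and trafficking receptors 5 rose and 2 fell, led by *Ccr2* (1.74) and *Cxcr4*, which holds cells in the marrow (−2.10). The *Cxcr4* call was lost in 4 of the alternatives, DESeq2 among them (−2.23), and *Ccr2* was 1.13 and not past the threshold among cells of 4000 to 8000 UMIs.

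Where C2 changed differently from the other CD4+ cells at the higher dose, 564 genes had the higher change in C2 and 1207 the lower of 9878 tested in the pool-blocked fit. The split turned to 1393 and 705 with library size scaling, which moved the median difference to 0.25. *Csf1*, the macrophage growth factor, was at 2.17, 5.82 and 5.63 CPM in saline, 6.98, 7.17 and 8.04 CPM at the lower dose and 28.0, 29.7 and 36.1 CPM at the higher dose in C2. In the other CD4+ cells it fell from 56.0 to 10.3 CPM, a difference of 5.21 ± 0.44. *Nrp1*, neuropilin-1, was held in C2 (65.0, 42.2 and 35.7 CPM in saline, 40.7, 46.6 and 51.8 CPM at the lower dose, 56.0, 49.5 and 43.0 CPM at the higher dose) and changed in the other cells by −2.42 on the log2 scale.

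**Figure D5:**
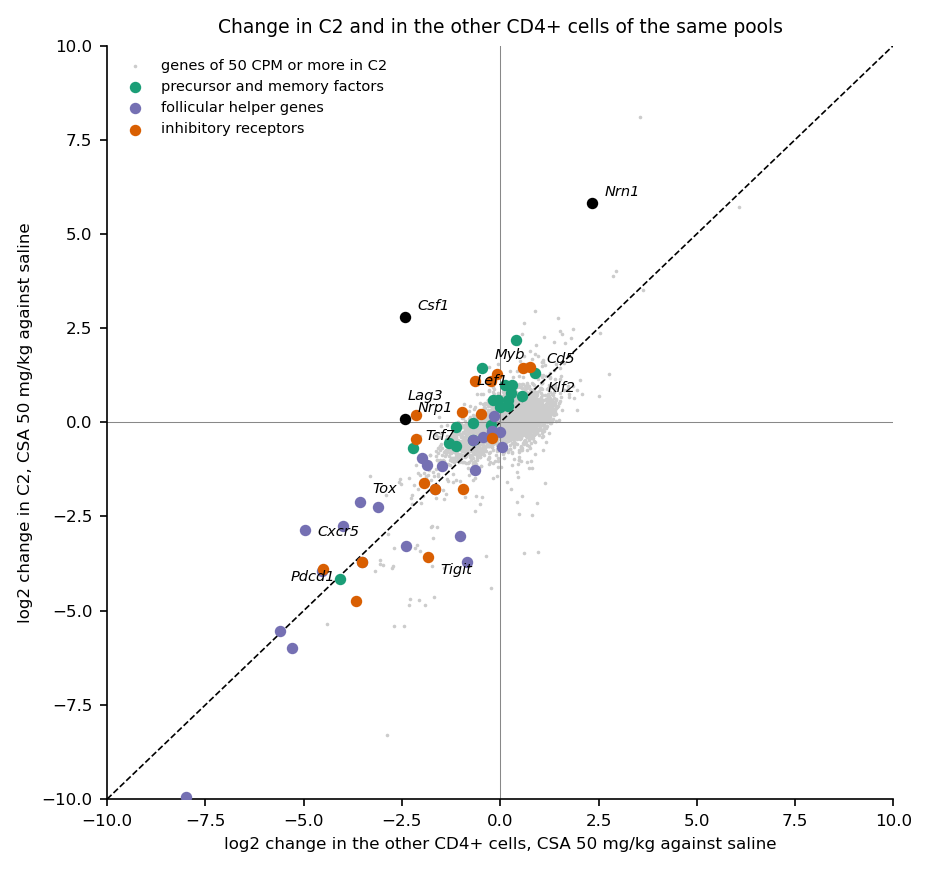
Log2 change at CSA 50 mg/kg against saline in C2 (vertical axis) and in the other CD4+ cells of the same pools (horizontal axis), with grey points for genes of at least 50 CPM in C2, colours for precursor and memory, follicular helper and inhibitory receptor genes and a dashed line where the changes are equal. *Tcf7* and *Lag3* lie above the line and *Tigit* below it; for *Tcf7* the difference did not pass the threshold against C0 and C1 alone.

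*Tox*, the transcription factor of the exhaustion program, fell in C2 (−2.19) and further in the other cells (−3.58), a difference of 1.41. *Tigit* went the other way, with a difference of −1.77 ± 0.21. Of 17 inhibitory receptors 4 had the higher and 1 the lower change in C2, where 5.71% and 12.2% of all genes did. *Cd4* itself did not pass in C2 (−0.15, edgeR adjusted p = 0.201) and changed by −0.87 in the other CD4+ cells. Cell cycle genes gave 0 higher and 31 lower of 35, 15 lower when the other cells were taken outside the cycling clusters, and 7 lower against C0 and C1 alone.

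Scores that the authors gave each cell, as averages of a gene set above control genes, and whose gene sets are not named in the sources used here, were compared as medians over the cells of a pool. The stem-like score of C2 was 0.181 ± 0.0167, 0.219 ± 0.0120 and 0.327 ± 0.0132 by dose (SD, n = 3 pools; exact permutation test of the trend, p = 0.0012, the smallest p it allows). In the other CD4+ cells it was −0.0596, −0.0749 and −0.111, and in C9 0.244, 0.192 and 0.293. The exhaustion score of C2 was 0.0821, 0.0856 and 0.0868 (the same exact test, p = 0.0036), although *Pdcd1*, *Tigit* and *Tox* fell at the higher dose. The glycolysis score was 0.0300, 0.0309 and 0.0228 (the same exact test, p = 0.123). Depth per cell rose with dose and can move such scores; its part was not tested. On the authors' pseudotime C2 lay at 6.06, 6.56 and 6.73, between C9 (0.107, 0.124 and 0.177) and C4 (9.84, 9.69 and 9.60).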

How the data were processed

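The authors deposited unscaled UMI counts, made with Cell Ranger and Seurat 3.0.0 on mm10 and filtered to the cells and genes kept. Aligner version and annotation are not given in the sources used here. The mitochondrial fraction, the module score values and the other cell labels (pool, cluster, TEa mark, clonotype) were used as deposited. Doublets were treated only through the hashtags. Of 18029 genes, sums per pool were tested with edgeR 4.0.16 (R 4.3.3, filterByExpr, TMM, all 9 pools, quasi-likelihood test, Benjamini-Hochberg, threshold 0.05), and the difference from the other CD4+ cells by an interaction term with pool as block. Replicates are pools of 2 mice within 1 capture, so p-values measure the spread between these pools. The members and lists were chosen with earlier results of these data known. Named genes were *Tcf7*, *Tigit*, list members with large changes at 50 mg/kg, the 6 largest rises and falls per comparison (at least 50 CPM, no overlap), the 12 highest and 6 lowest ratios to other cells and the 5 largest interaction terms each way; further list members were named after their values were seen. The procedure was tested on simulated data. DESeq2 1.42.0 and the other alternatives are given below. Some genes counted in the lists are not reported here by name.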

Additional observations from a re-analysis of the deposited data

Results flagged for a closer look

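These genes had a change at 50 mg/kg that differed between C2 and the other CD4+ cells by edgeR's interaction test with Benjamini-Hochberg adjustment, and were the 5 largest in each direction. Higher in C2 were *Gucy1a1* (7.34), *Csf1* (5.21), *Nrn1* (3.35), *Cxcr5* (2.56) and *Nrp1* (2.49), as log2 differences of the changes. Lower in C2 were *Ifitm1* (−8.68), *Hmmr* (−4.77), *Birc5* (−4.26), *Pclaf* (−4.12) and *Hist1h2ap* (−3.72), of which *Hmmr*, *Birc5*, *Pclaf* and *Hist1h2ap* are cell cycle or histone genes. *Gucy1a1* and *Ifitm1* were at 0 UMIs in a group of C2, so their size depends on the prior count of the fit. *Gucy1a1* was also higher at that dose in the clusters C7 (4.93 to 84.2 CPM) and C4 (1.11 to 64.9 CPM), against 84.1 CPM in C2 at 50 mg/kg. Against C0 and C1 alone, *Gucy1a1* (4.51), *Cxcr5* (0.48) and *Hmmr* (−2.38) were no longer past the threshold.

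Further genes named in the results had a change that differed from that of the other CD4+ cells by the same test. At 50 mg/kg the difference was positive for *Tcf7* (1.56), *Klrd1* (2.00), *Lag3* (2.28), *Myb* (1.84), *Cd5* (0.70), *Cd6* (0.79), *Tox* (1.41), *Bcl2* (1.01) and *Cd4* (0.73), and negative for *Tigit* (−1.77), *Ppia* (−1.04) and *Atp5e* (−1.08). At 5 mg/kg it was positive for *Tcf7* (0.92), *Sostdc1* (2.14) and *Cxcr5* (1.41) and negative for *Egr3* (−1.89). Of these, *Tcf7* at either dose and *Sostdc1*, *Cxcr5* and *Egr3* at 5 mg/kg were not past the threshold against C0 and C1 alone.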

How the results depend on the processing

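The number of genes called at 5 mg/kg against saline (364) was 183 with DESeq2, 143 among cells of 4000 to 8000 UMIs, 2700 with C2 and C4 as 1 cluster (chosen after seeing the data), 232 to 422 with each pool left out, with the lowest without saline pool 2 and 242 without CSA 5 mg/kg pool 3. At 50 mg/kg (1544) it was 845, 712 and 3779 in the same order, and 1185 to 1541 with a pool left out. Between doses (1117) it was 583 with DESeq2, 670 among cells of 4000 to 8000 UMIs and 821 to 1163 with a pool left out. Fewer cells enter the UMI window, and at 5 mg/kg DESeq2 gave an adjusted p for 2600 genes, against 6848 with edgeR. The cause of the other moves was not tested. Differences from C0 and C1 alone numbered 558 at 5 mg/kg (994 from all other cells) and 1171 at 50 mg/kg (1771). Library size scaling gave 705 higher and 459 lower differences at 5 mg/kg (170 and 824 with TMM).

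The difference in the share of C2 between 50 mg/kg and saline (−1.10 points) was 0.815 points outside the cycling clusters and −17.7 points with C4, and −2.68 to −0.31 with a pool left out. The expanded share by dose (−2.12 points) was −3.47 to 0.18 with a pool left out, the highest without CSA 50 mg/kg pool 3, and −3.50 in cells with both chains. The interaction of *Hist1h2ap* against C0 and C1 alone was 0.26. Same-numbered pools did not deviate together, and with the replicate block 367, 1528 and 1102 genes were called, while the interaction without a pool block gave 958 and 1726. Over the genes named in the text, 297 results were computed under alternatives that gave 5996 values, of which 5655 kept direction and side of the threshold, 340 no longer passed and 1 reversed (*Hist1h2ap*). Cells of 4000 to 8000 UMIs accounted for 58 of these losses and DESeq2 for 43.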
